A study of Mus musculus with 7 samples.

Results

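A set of 10 genes of cyclic AMP (cAMP) signalling, chosen by name, was followed across 7 RNA-seq libraries of mouse regulatory T (Treg) cells: Adcy7, Prkar1a, Prkaca, Prkacb, Pde3b, Pde4a, Pde4b, Pde4d, Pde7a and Crem. All 10 were found among the 15815 genes of the deposited table, and all 10 passed the filter on low values, a mean of at least 10 normalized counts. The marked Treg cells were Hpgd-deficient in 3 libraries (KO 1 to 3) and WT in 4 libraries (WT 1 to 4). They carried YFP from a Foxp3-YFP-Cre allele, which acts in cells that express Foxp3, and had been injected into Rag-/- mice, hosts without T or B cells of their own, beside WT naive T cells and WT Treg cells. YFP+ cells were sorted from the mesenteric lymph nodes (mLN) 8 weeks later. The labels give the same strain (C57BL/6JRcc) and the same line (Hpgd fl with Foxp3-YFP-Cre) for both groups, so the titles alone separate KO from WT. Whether the libraries stem from different host mice is not labelled, so the p-values reflect library-to-library spread that may be technical.

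Cyclic AMP is made from ATP by adenylyl cyclases, which G proteins switch on or off below receptors such as the prostaglandin E2 receptors. It binds the regulatory subunits of protein kinase A (PKA) and so frees the catalytic subunits, which phosphorylate CREB family transcription factors among other targets. Phosphodiesterases break cAMP down. In T cells cAMP damps signalling from the antigen receptor, Treg cells are known for high cAMP, and prostaglandin E2, which the enzyme encoded by Hpgd inactivates, is one of the signals that raise it. The data ask which isoform of each step the sorted Treg cells carried, and whether any of the 10 transcripts differed when Hpgd was deleted.

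Levels are normalized counts, the deposited value minus 1, and levels of different genes are compared only per kilobase of annotated exon. Each library held 4135733 (KO 3) to 10622507 (WT 4) reads, which makes KO 3 the least precise for low genes. Hpgd itself lay at 0.759, 2.42 and 5.52 normalized counts in KO 1 to 3 and at 18.7, 9.96, 10.2 and 13.4 in WT 1 to 4, without overlap, although the labels do not say which exons were deleted. Treg cell markers (8 of 8 listed, led by Ikzf2 and Cd3g) summed to 42807 to 44081 in KO and 39139 to 45102 in WT libraries. The list also holds genes of T cells in general, such as Cd3g, so the sum does not mark Treg cells alone. Foxp3 itself lay at 123, 107 and 142 in KO 1 to 3 and at 107, 56.1, 161 and 103 in WT 1 to 4. Markers of other cells were also read. The myeloid and dendritic list (10 of 10, led by Lyz2 and Csf1r) summed to 693 to 1600 in KO and 221 to 1383 in WT, the B cell list (5 of 7, led by Cd79b and Blk) to 353 to 474 and 368 to 765, and the CD8 T and NK list (7 of 7, led by Cd8b1 and Prf1) to 160.0 to 246 and 206 to 317. The erythroid list (4 of 6, led by Hba-a2 and Hba-a1) summed to 62.2 to 199 in KO and 491 to 2033 in WT. The stromal and endothelial list (4 of 7, led by Epcam and Pecam1) summed to 577 to 728 and 550.0 to 897. Over the 7 libraries Epcam and Pecam1 averaged 368 and 306, against 23.4 for Col1a1 and 6.44 for Ccl19. That sum is thus mostly Epcam and Pecam1 and does not measure stromal cells. No listed marker that was read was at 0 in every library. The part of these other cells in the values below was not tested, and in bulk RNA fewer cells of a type and less RNA per cell cannot be told apart.

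None of the 10 genes differed between KO and WT Treg cells past the threshold. In limma's test with Benjamini-Hochberg adjustment over 11787 tested genes, 0 of the 10 passed an adjusted p of 0.05, each with an adjusted p of 0.9996, against 0% of all tested genes. At an unadjusted p under 0.05 there were 0 of the 10, against 1.79% of tested genes. The voom fit on recovered reads gave 0 of the 10 by either measure, and 0 and 184 of all tested genes. KO and WT libraries overlapped for each of the 10, where 3.65% of tested genes had groups that did not overlap. Estimates were higher in KO for 4 and lower for 6, against 51.8% higher among all tested genes, and the median log2 fold change of the 10 was -0.02, against 0.01 over all tested genes. For 8 of the 10 the 95% interval lay within a 2-fold change in either direction, which held for 56.4% of tested genes. Prkaca, Pde3b, Pde4a and Pde4d kept the sign of their estimate in every alternative analysis that tested them, and the sign of each of the other 6 turned in at least 1.

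**Figure D1:**
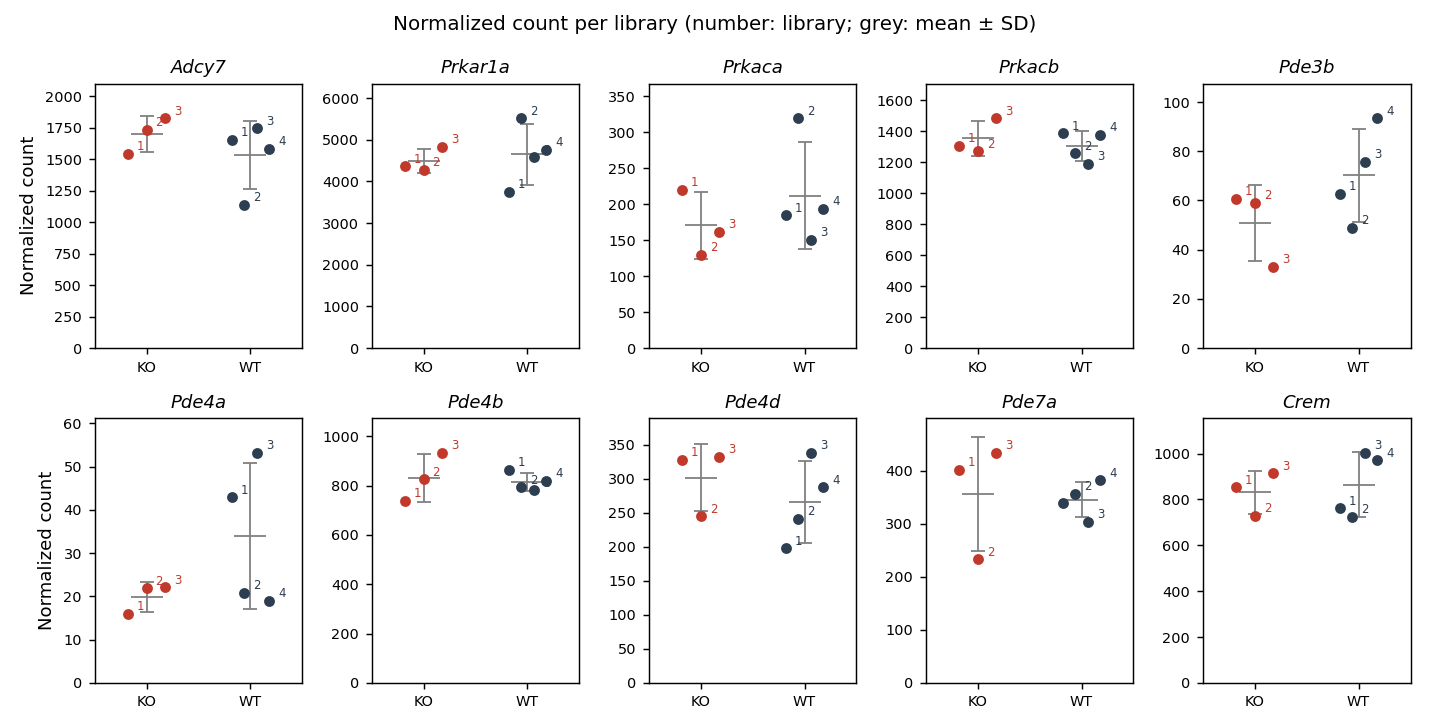
Normalized count (vertical axes, from 0) of each of the 10 genes in the 3 KO (red, left) and 4 WT (dark, right) libraries, numbered by library, with the group mean and SD in grey. The groups overlap in every panel, and the widest relative scatter is in Pde4a and Pde3b.

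The catalytic step of cAMP synthesis was represented by 1 abundant isoform. Adcy7 (mm10, chr8:88272403-88329962, plus strand) encodes adenylyl cyclase 7, the isoform known as the main one of lymphocytes. It lay at 1544, 1734 and 1826 normalized counts in KO 1 to 3, against 1656, 1139.8, 1746 and 1580.0 in WT 1 to 4. WT 2 was the low library, and the other WT values lay inside the range of the KO values. The log2 fold change was 0.17 (SE 0.20, limma adjusted p = 0.9996), with a 95% interval from 0.83-fold to 1.52-fold. Without WT 2 it was 0.03, and without both WT 2 and KO 3 it was -0.02.

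Among adenylyl cyclase genes Adcy7 took most of the summed level in every library. Per kilobase of exon it averaged 238 ± 33.7 (SD, n = 7) normalized counts, against 32.6 ± 13.2 for Adcy3, the next cyclase, and 3.29 to 18.6 times the Adcy3 level in single libraries. The other 6 cyclase genes read (Adcy4, Adcy5, Adcy6, Adcy8, Adcy9 and Adcy10) averaged at most 0.79 per kilobase. Adcy7 made up 88.2 ± 3.34% of the cyclase sum in KO (SD, n = 3) and 85.5 ± 7.12% in WT (SD, n = 4). Its lowest share, 76.3%, was in WT 2, where Adcy7 was lowest and Adcy3 highest. Adcy3 lay at 199, 109.9 and 243 normalized counts in KO and at 259, 321, 87.1 and 207 in WT (log2 fold change -0.17, SE 0.43). Adcy5 was under the filter, at 15.2, 0 and 18.4 in KO and 3.3, 0, 0 and 2.81 in WT.

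**Figure D2:**
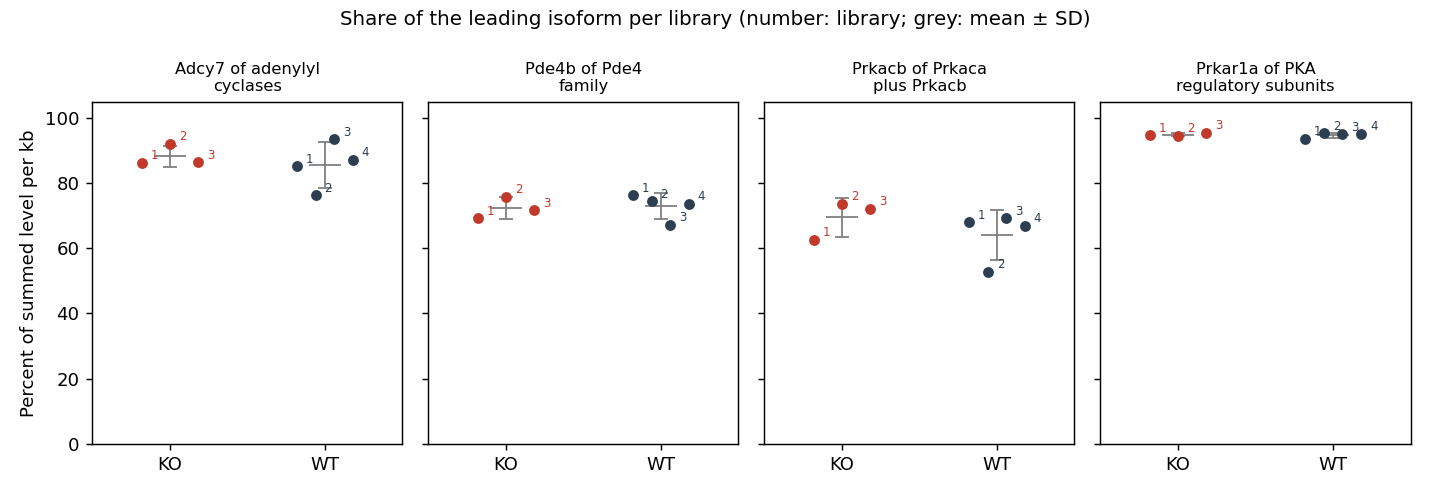
Share (percent, from 0 to 100) of the leading gene in the summed level per kilobase of its family, for the 3 KO (red, left) and 4 WT (dark, right) libraries, with the group mean and SD in grey. Prkar1a stays between 93.7% and 95.5%, while Prkacb, as a share of Prkacb and Prkaca, is at 52.7% in WT 2.

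PKA is a complex of regulatory and catalytic subunits. Prkar1a (chr11:109649405-109669656, plus strand) encodes the type I alpha regulatory subunit, which holds the kinase inactive until cAMP binds. Its level was 4366, 4278 and 4825 in KO 1 to 3 and 3743, 5518, 4576 and 4756 in WT 1 to 4. Both the lowest and the highest library were WT (WT 1 and WT 2), and the KO libraries lay between them. KO over WT, its log2 fold change was -0.04 (SE 0.20, limma adjusted p = 0.9996), an interval from 0.73-fold to 1.30-fold.

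Prkar1a was the most abundant of the 10 per kilobase, at 1060.0 ± 127 (SD, n = 7), and lay above Adcy7 in 7 of 7 libraries. It made up 94.6% to 95.5% of the summed level of the 4 regulatory subunit genes in KO and 93.7% to 95.3% in WT. Prkar2a, a type II regulatory subunit gene, held most of the rest, at 313 ± 9.57 normalized counts in KO and 318 ± 22.2 in WT. Prkar1b, the beta form of the type I subunit, lay at 7.59, 7.27 and 0 in KO and 33.0, 46.2, 9.05 and 8.43 in WT. These groups did not overlap (log2 fold change -2.25, SE 1.05, limma adjusted p = 0.9996), but the closest libraries, WT 4 and KO 1, differed by less than 1 normalized count. Without KO 3, the library at 0, the log2 fold change was -1.23, and without both WT 2 and KO 3 it was -0.81. Prkar2b, the beta form of type II, was at 17.2 ± 3.32 in KO and 8.02 ± 6.85 in WT.

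One of the RefSeq promoter windows of Prkar1a (250 bases before to 50 after an annotated start, GRCm38.p6, the assembly of mm10) is shown because Prkar1a was the most abundant transcript and, of the genes with a matched window, the only one whose windows hold the cAMP response element, the palindrome TGACGTCA through which CREB family proteins are known to bind. Windows were matched for 7 of the 10 genes (not Pde3b, Pde7a and Crem), 22 in all. The palindrome, which reads the same on both strands, was in 2 of them and in 1.79% of all 32851 windows. Both were windows of Prkar1a that overlap each other, so they may hold the same copy of it. The shorter motif TGACG or its reverse complement CGTCA, both of which the palindrome also contains, was in 8 of the 22 windows and 20.8% of all windows. Capitals mark the palindrome, which begins 38 bases after the annotated start in the window chr11:109650612-109650911, plus strand. A match of letters is a description, and no binding was measured here.
Prkar1a: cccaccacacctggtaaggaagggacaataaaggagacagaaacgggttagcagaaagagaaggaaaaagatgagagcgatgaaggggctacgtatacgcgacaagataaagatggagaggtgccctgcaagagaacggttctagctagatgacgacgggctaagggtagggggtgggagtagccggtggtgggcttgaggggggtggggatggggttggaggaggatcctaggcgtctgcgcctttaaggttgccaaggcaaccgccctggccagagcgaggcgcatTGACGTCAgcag

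Prkacb and Prkaca are the PKA catalytic subunit genes among the 10. Prkacb (chr3:146729574-146812990, minus strand) encodes catalytic subunit beta and was at 1305, 1271 and 1484 in KO 1 to 3, against 1387, 1257, 1189.8 and 1378 in WT 1 to 4. KO 3 was highest and WT 3 lowest, with the other 5 libraries between. Its spread over the 7 libraries, an SD of 0.11 on the log2 scale, was the smallest of the 10 genes, against a median of 0.40 over all tested genes. The KO over WT estimate was 0.05 on the log2 scale (SE 0.18, limma adjusted p = 0.9996), an interval from 0.80-fold to 1.35-fold.

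Prkaca (chr8:83972993-83996443, plus strand), the alpha form, varied more. It lay at 220.1, 129 and 162 in KO 1 to 3 and at 185, 319.6, 150.4 and 193 in WT 1 to 4. WT 2 stood above the rest, and the next highest library was KO 1. As a log2 fold change the estimate was -0.29 (SE 0.32, limma adjusted p = 0.9996), and -0.07 without WT 2.

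Within each library the beta transcript exceeded the alpha transcript per kilobase of exon. The ratio of Prkacb to Prkaca was 1.68, 2.79 and 2.60 in KO 1 to 3 and 2.13, 1.12, 2.24 and 2.02 in WT 1 to 4. WT 2 had the lowest ratio, and KO 1 the next lowest. As a share of the sum of Prkacb and Prkaca, Prkacb was at 69.5 ± 5.94% in KO (SD, n = 3) and 64.2 ± 7.71% in WT (SD, n = 4), a gap smaller than the spread in WT. The size of this ratio rests on the length used: its mean was 2.08 with all annotated exons, 3.85 with the longest transcript and 6.48 with the longest coding sequence. Beta lay above alpha in 7 of 7 libraries under each length. Prkx, a related cAMP-dependent kinase gene, was at 590.3 ± 236 normalized counts in KO and 517 ± 135 in WT. Per kilobase of exon it averaged 94.4 ± 29.5 (SD, n = 7), below Prkacb in 7 of 7 libraries, and Prkaca lay above it in WT 2 alone. With Prkx added to the sum, a choice made after seeing the data, the Prkacb share was 48.3 ± 6.91% in KO and 46.1 ± 2.33% in WT.

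Prkar1a also exceeded the Prkacb and Prkaca transcripts together. Per kilobase its level was 4.26, 5.03 and 4.77 times the catalytic sum in KO 1 to 3 and 3.73, 4.70, 5.40 and 4.69 times in WT 1 to 4. KO values lay inside the WT range. The mean ratio was 4.69 ± 0.392 in KO and 4.63 ± 0.687 in WT, and over all 7 libraries it was 4.65, against 3.31 with Prkx added to the sum, 3.35 with the longest transcript and 3.11 with the longest coding sequence.

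Phosphodiesterases made up 5 of the 10 genes, and 3 of them belong to the cAMP-specific PDE4 family, the target of rolipram. Pde4b (chr4:102087543-102607259, plus strand), the isoform best known for acting near the T cell receptor, was at 737, 825 and 932 in KO 1 to 3 and 864, 793, 780.4 and 820.2 in WT 1 to 4. The WT libraries lay close together inside the KO range, whose lowest and highest values were KO 1 and KO 3. Between the groups the log2 fold change was 0.02 (SE 0.18, limma adjusted p = 0.9996), an interval from 0.77-fold to 1.34-fold.

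Pde4d (chr13:108449948-109953461, plus strand), a long family member with many start sites, was at 328, 245 and 333 in KO 1 to 3 and 198, 241, 338 and 287 in WT 1 to 4. WT 1 was lowest and WT 3 highest. Its log2 fold change, 0.20 with an SE of 0.26 (limma adjusted p = 0.9996), was the highest of the 10, with an interval from 0.78-fold to 1.69-fold.

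Pde4a (chr9:21165714-21213248, plus strand) was the lowest of the family among the 10 and the least precise, with 12 to 47 reads per library. It lay at 15.9, 21.8 and 22.1 in KO 1 to 3 and 42.9, 20.8, 53.2 and 19.0 in WT 1 to 4. WT 1 and WT 3 stood above all other libraries, while WT 2 and WT 4 lay within the KO range. At -0.62 with an SE of 0.58 (limma adjusted p = 0.9996), the log2 fold change was the lowest of the 10, and its interval ran from 0.27-fold to 1.55-fold.

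Among the PDE4 transcripts Pde4b led in every library. Its share of the family sum per kilobase was 69.2%, 75.9% and 71.7% in KO 1 to 3 and 76.3%, 74.4%, 67.2% and 73.7% in WT 1 to 4. Pde4d held 23.1 ± 3.68% in KO and 20.9 ± 4.36% in WT, and Pde4a 2.39 ± 0.354% and 4.15 ± 1.93%. The differences between KO and WT in these shares were smaller than the SD of the WT libraries. The Pde4b level was 2.56 to 4.96 times the Pde4d level in single libraries.

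Pde7a and Pde3b represent other phosphodiesterase families. Pde7a (chr3:19223108-19311322, minus strand), a cAMP-specific and rolipram-insensitive enzyme of T cells, was at 401, 233 and 434 in KO 1 to 3 and 339.9, 357, 304 and 382 in WT 1 to 4. All WT libraries lay between KO 2 and KO 1, so the KO group was the more scattered, with an SD of 108 against 32.7. The log2 fold change was -0.0028 (SE 0.26, limma adjusted p = 0.9996), and it was 0.28 without KO 2.

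Pde3b (chr7:114415281-114539251, plus strand) encodes a phosphodiesterase that cGMP inhibits, and its repression by Foxp3 is a known feature of Treg cells. It was at 60.7, 59.0 and 33.1 in KO 1 to 3 and 62.7, 48.9, 75.8 and 93.5 in WT 1 to 4. KO 3, the shallowest library, was lowest, and WT 4, the deepest, was highest. KO 3 held 18 reads of Pde3b and WT 4 held 133. The log2 fold change was -0.47 (SE 0.42, limma adjusted p = 0.9996), and -0.19 without KO 3, so that library moved the estimate by more than any other.

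Set beside the other cAMP phosphodiesterase genes read, the leading transcript was Pde2a or Pde4b, depending on gene length. Pde2a, which encodes an enzyme for cAMP and cGMP that cGMP stimulates, averaged 123 ± 38.7 per kilobase of exon and Pde4b 77.8 ± 5.95 (SD, n = 7), with Pde2a above in 7 of 7 libraries. With the longest transcript Pde2a was above in 2 of 7, and with the longest coding sequence in 1 of 7. Pde2a lay at 1174, 658 and 726 normalized counts in KO 1 to 3 and 967, 689, 573 and 486 in WT 1 to 4. Summed myeloid and dendritic markers were at 1600, 693 and 1078 in KO 1 to 3 and 1351, 1383, 221 and 1269 in WT 1 to 4. KO 1 was highest for both, while WT 4 was lowest for Pde2a and WT 3 for these markers. The part of myeloid and dendritic cells in the Pde2a level was not tested.

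**Figure D3:**
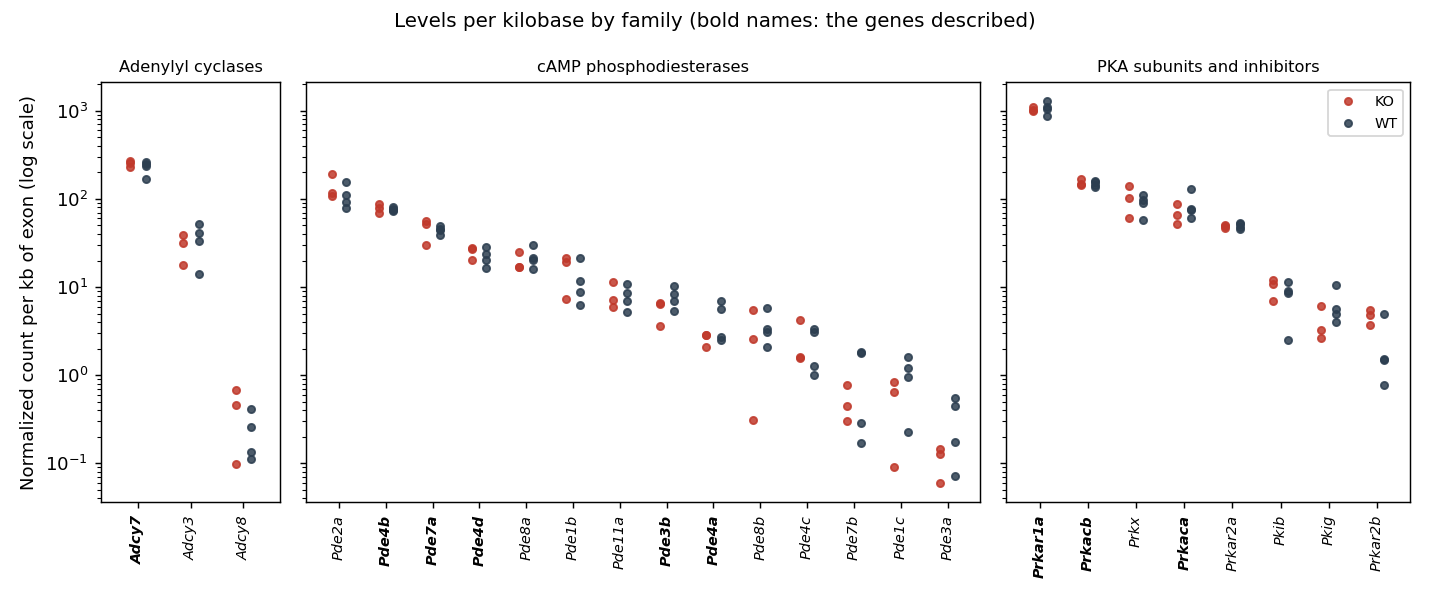
Normalized count per kilobase of annotated exon (logarithmic axis) for adenylyl cyclase, cAMP phosphodiesterase and PKA genes with reads in all 7 libraries, each point 1 library, KO in red on the left and WT in dark on the right. Bold names are the 10 genes described (Crem belongs to none of these families); Prkar1a and Adcy7 stand highest, at means of 1060.0 and 238.

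Crem, on chromosome 18, encodes the cAMP response element modulator. It yields activators and, from an internal promoter that cAMP induces, the repressor ICER, and a gene-level count does not separate them. Crem lay at 853, 729 and 914 in KO 1 to 3 and 761, 725, 1003 and 971 in WT 1 to 4. The KO libraries lay inside the WT range. Its log2 fold change was -0.05 (SE 0.20, limma adjusted p = 0.9996), an interval from 0.71-fold to 1.31-fold. Annotated exons of Gm6225 on the opposite strand overlap 472 bases, 8.01%, of the Crem exons, and the libraries carry no strand information, so reads there cannot be assigned to one of the pair by strand.

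The full order of the 10 per kilobase of exon ran Prkar1a (1060.0 ± 127), Adcy7 (238 ± 33.7), Prkacb (151 ± 11.2), Crem (144 ± 19.6), Prkaca (78.0 ± 25.2), Pde4b (77.8 ± 5.95), Pde7a (45.2 ± 8.59), Pde4d (23.4 ± 4.56), Pde3b (6.80 ± 2.10) and Pde4a (3.65 ± 1.85), each a mean ± SD over 7 libraries. Neighbours kept this order in 7 of 7 libraries, with 3 exceptions. Prkacb lay above Crem in 5 of 7, Crem above Prkaca in 6 of 7, and Prkaca above Pde4b in 3 of 7. Prkacb and Crem, and likewise Prkaca and Pde4b, differed by less than their spread. With the longest transcript as the length, the order began Prkar1a, Prkacb, Crem and Adcy7. Prkar1a stayed first and Pde3b and Pde4a last under all 3 lengths.

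**Figure D4:**
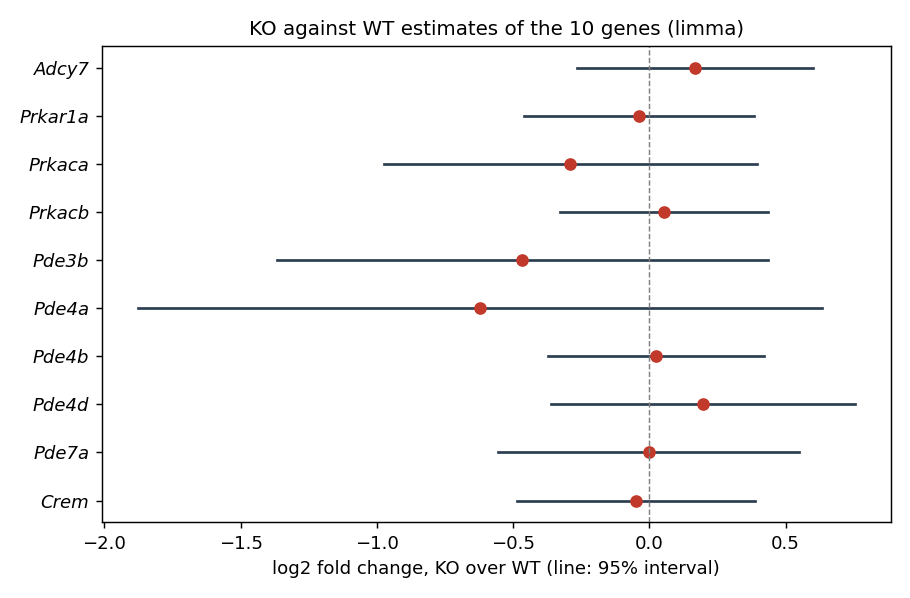
Log2 fold change, KO over WT, of the 10 genes from the limma fit over all tested genes (point) with its 95% interval (line). Every interval crosses 0, and the widest are those of Pde4a and Pde3b.

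The spread across libraries differed among the 10 genes. Their SD over the 7 libraries on the log2 scale ran from 0.11 for Prkacb to 0.62 for Pde4a, with a median of 0.26, against 0.40 over all tested genes, which include many at lower levels. It was below that median for 7 of the 10 and above it for Prkaca, Pde3b and Pde4a. No library was extreme throughout. KO 3 held the highest value of 4 of the 10, WT 3 of 3, WT 2 of 2 and WT 4 of 1.

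The 3 most variable genes were each set against the 8034 or 8035 other tested genes with a mean of at least 100, by Pearson's r of log2 levels over the 7 libraries. Nearest to Prkaca were Tmem184b (r = 0.99, Spearman's rho 0.96), Mllt1 (0.99, 1.00) and Hic1 (0.98, 0.96). With the 2 libraries most distant from the median left out (KO 2 and WT 2), r was 0.95, 0.97 and 0.92. Nearest to Pde3b were Smyd4 (r = 0.99, rho 0.89), Pvt1 (0.98, 0.89) and Ptcd3 (0.97, 0.86), and without KO 3 and WT 4 r was 0.96, 0.89 and 0.84. For Pde4a they were Acrbp (r = 0.94, rho 0.57), Ppfia1 (0.91, 0.96) and Ddx27 (0.91, 0.93). Without WT 1 and WT 3 the other two stood at 0.98 and 0.75 and Acrbp at -0.04, so that the likeness to Acrbp rests on those libraries. These are descriptions of the best of all genes searched, over libraries that every gene shares.

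The wider pathway was read from 9 lists that hold 88 genes, the 10 included, of which 81 were read and 64 tested. In limma 0 of the 64 passed (smallest adjusted p of all tested genes 0.189), 1 had an unadjusted p under 0.05 (1.79% of all tested genes), and 3 had groups that did not overlap (3.65% of all tested genes). Estimates were higher in KO for 36 and lower for 28, against 51.8% higher among all tested genes, with a median log2 fold change of 0.03. Without both WT 2 and KO 3, 22 pathway genes were higher. The filter was applied anew in that fit, so the genes tested can differ from these 64. The share over all tested genes is not given for it, so no turn particular to the pathway can be read.

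Upstream of the cyclases, 3 of 5 tested G protein alpha subunit genes had higher estimates in KO. Gnas, the stimulatory subunit, lay at 1969, 1816 and 1802 in KO 1 to 3 and 1290.3, 2275, 1254 and 1397 in WT 1 to 4 (log2 fold change 0.30, SE 0.22, limma adjusted p = 0.9996). WT 2 was above all KO libraries and the other 3 WT libraries were below them. Gnai2, an inhibitory subunit, was at 3169 ± 497 in KO and 3283 ± 901 in WT. Gnaz, another inhibitory one, lay at 12.9, 20.2 and 132 in KO and at 51.7, 31.7, 242 and 122 in WT. Of 6 tested receptors that couple to the stimulatory G protein, 3 were higher and 3 lower. The acid-sensing receptor gene Gpr65 was at 741 ± 48.6 in KO and 741 ± 153 in WT, and the prostaglandin E2 receptor gene Ptger4 at 883, 1081 and 886 in KO and 990.0, 1003, 1394 and 938 in WT.

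Of 12 tested phosphodiesterase genes 6 were higher and 6 lower in KO (median 0.01), and of 9 tested PKA subunit and inhibitor genes 4 were higher and 5 lower (median -0.02). Outside the 10, Pde8a was at 79.2 ± 19.5 in KO and 88.4 ± 23.4 in WT, and Pde1c at 10.5 ± 7.72 and 20.1 ± 11.7. A-kinase anchoring proteins tether PKA to sites in the cell, and 9 of their 10 tested genes had higher estimates in KO, and the list's median log2 fold change was 0.22. None passed (limma adjusted p = 0.9996 for the smallest p). Akap13, by far the most read of them, was at 6717 ± 416 in KO and 6348 ± 738 in WT, and Akap8 at 1531 ± 401 and 1262 ± 326. Akap11, with the smallest p, lay at 318, 448 and 436 in KO and 376, 177, 333 and 340.2 in WT, and Akap7 at 31.1, 41.2 and 132 and at 33.0, 9.96, 63.3 and 38.0. WT 2 was the lowest library for all 4 of these, and KO 3 the highest for Akap8 and Akap7. Without WT 2 the estimates were higher for 6 of 10, with a median of 0.01. Without both WT 2 and KO 3 they were higher for 3 of 10, with a median of -0.07. The direction of this list thus depended on the libraries kept. Leaving out a low WT and a high KO library lowers an estimate by construction. The share over all tested genes is not given for these fits, so no direction particular to this list can be read. Other routes were Abcc4, a cAMP exporter gene (276 ± 57.7 in KO and 226 ± 62.8 in WT), and Rapgef4, a cAMP-activated exchange factor gene (23.9 ± 16.5 and 44.1 ± 23.8).

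Downstream, the CREB family and its coactivators split into 4 higher and 4 lower estimates. Creb1 was at 1193 ± 347 in KO and 1076 ± 400.4 in WT, and the acetyltransferase gene Crebbp at 2098 ± 283 and 1909 ± 151. Crtc1, a coactivator that cAMP releases into the nucleus, lay at 29.6, 27.5 and 20.2 in KO 1 to 3 and 37.4, 60.7, 69.0 and 35.1 in WT 1 to 4, without overlap (log2 fold change -0.90, SE 0.48, limma adjusted p = 0.9996). Of 10 tested CREB target genes 5 were higher and 5 lower. Fosl2, an AP-1 subunit gene, was the gene with an unadjusted p under 0.05. It lay at 184, 195 and 195 in KO and 112, 76.0, 158 and 146 in WT (log2 fold change 0.68, SE 0.31, unadjusted p = 0.0489, limma adjusted p = 0.9996). The phosphatase gene Dusp1 was at 2675 ± 309 in KO and 2787 ± 1789 in WT, with WT 4 at 5389, the nuclear receptor gene Nr4a1 at 381 ± 99.9 and 535 ± 247, and the G protein regulator gene Rgs2 at 522 ± 148 and 380.2 ± 176.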

How the data were processed

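RNA was measured in 3 KO and 4 WT libraries. SmartSeq2 libraries were made from 10 ng of RNA, per the labels' protocols (full-length cDNA, strand not kept, no molecular identifiers), and sequenced on a NextSeq 500. The submitters' processing notes name kallisto 0.44, CASAVA 1.8, Partek 6.6, R 3.3.1, DESeq2 and mm10, with no role or order. The deposited values are a normalized signal per gene, made by the authors. After subtraction of 1, 100% of values fell on multiples of a library-specific step (tolerance 0.01 of a read), so normalized counts here are deposited values minus 1, and dividing by the step gave reads. Limits from reads cover counting error only.

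KO was compared with WT by limma 3.58.1 (R 4.3.3) without covariates and with a trended prior, on log2(normalized count + 1) of genes with a mean of at least 10 (11787 of 15815) and Benjamini-Hochberg adjustment. Hpgd, below that filter, is given by level. No count model was run, since the values are not counts as deposited; voom on recovered reads was an alternative. Lengths and coordinates come from GENCODE M21 (GRCm38), promoter windows from RefSeq (GRCm38.p6). The fit was tested on simulated data. Of each pathway list the 2 genes with the highest mean and the 2 tested with the smallest p were named. Of each marker list the 2 highest were named, with Foxp3 added. For the 3 most variable of the 10 the 3 genes of highest r were named. One gene that this rule names is not reported here. Hyphens in symbols, dots in the table, were restored. The members and lists were chosen with earlier results of these data known. Alternatives were pseudocounts, filters, scalings, priors, a block for replicate number, array weights, gene lengths and leaving libraries out.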

Additional observations from a re-analysis of the deposited data

Results flagged for a closer look

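In the 4 WT libraries each reported gene level (except Foxp3), marker sum and share was checked for 1 library far from the rest. Chance alone gives such a library in about 1 of 20 groups. Of 60 values checked, 4 stood out. The Prkacb share of the Prkacb and Prkaca sum was 52.7% in WT 2, against 66.9% to 69.2% in the other WT libraries. Gnas was at 2275 normalized counts in WT 2, against 1254 to 1397. Ptger4 was at 1394 in WT 3 (938 to 1003 in the other WT libraries). The summed myeloid and dendritic markers were at 221 in WT 3 (1269 to 1383 in the other WT libraries).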

How the results depend on the processing

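None of the 10 genes, and none of the 64 tested pathway genes, passed the adjusted threshold in any of the 20 alternatives. The members with no change of sign in any alternative that tested them were Prkaca, Pde3b, Pde4a and Pde4d. Among all genes 4 passed with array weights (Hba-a1, Hba-a2, Hbb-b1 and Gm2436), 3 under the replicate block (the first 3 of these) and 4 without both WT 2 and KO 3 (the same 3 and Gm2446). Of pathway genes 22 were then higher in KO, with neither the number tested nor the share over all tested genes given for that fit. Pathway genes with an unadjusted p under 0.05 numbered 0 with a pseudocount of 5 or total-read scaling, and 2 with a robust prior or voom. They numbered 3 without both WT 2 and KO 3, and 0 to 4 with 1 library left out. Without the trended prior, with array weights or under the replicate block they numbered 4. Over all tested genes, 1.79% had such a p in the main fit and 184 genes with voom. For the other settings that count is not given, so no rise particular to the pathway can be read from these numbers.

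Signs turned as follows, all in log2 fold change. Without both WT 2 and KO 3 the values were Adcy7 -0.020, Prkacb -0.031, Pde4b -0.074, Prkx -0.33, Gnai2 0.12, Akap8 -0.10, Akap7 -0.26, Crebbp -0.024, Creb1 -0.23 and Nr4a1 0.050. With array weights they were Prkacb -0.041, Pde4b -0.036, Prkx -0.31, Gnai2 0.023, Crebbp -0.0075, Creb1 -0.022 and Dusp1 -0.094. Under the replicate block, and equally without WT 4, which that fit leaves out, they were Pde7a 0.047, Crem 0.012, Pde8a 0.014, Prkar2a 0.015 and Gpr65 -0.054. Total-read scaling gave Pde7a 0.0043. With 1 library left out the ranges were Prkar1a -0.14 to 0.049, Prkacb -0.014 to 0.098, Pde4b -0.062 to 0.11, Pde7a -0.17 to 0.28, Crem -0.13 to 0.044, Adcy3 -0.56 to 0.16, Pde8a -0.34 to 0.014, Prkx -0.13 to 0.48, Prkar2a -0.061 to 0.015, Gnai2 -0.14 to 0.14, Gpr65 -0.067 to 0.14, Creb1 -0.026 to 0.39 and Dusp1 -0.16 to 0.51. The block fit leaves out WT 4 and is then balanced, so its estimates equal those without WT 4 by construction (37 of 37 named genes). Those signs turned with the loss of WT 4. The cause of the other turns was not tested.

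No consistent pairing by replicate number was seen, but the few same-numbered pairs cannot exclude one. Deviations from the group means of same-numbered libraries correlated at 0.0081, -0.04 and 0.09 over tested genes. Pairs of different number ran from -0.20 to 0.20. KO 1 and KO 2 correlated best with another number, and KO 3 with WT 3. WT 4 shares its number with no KO library.

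Gene length moved several shares. With the longest transcript and the longest coding sequence, the Pde4b share of all cAMP phosphodiesterases was 33.8% and 32.6% (23.9% with all exons), Pde7a 9.75% and 20.9% (13.7%), Pde4d 11.8% and 10.2% (7.17%), and Prkacb 78.4% and 85.8% of the Prkacb and Prkaca sum (66.5%). With Prkx in the sum, added after seeing the data, the Prkacb share was 47.0% and the Prkar1a to catalytic ratio 3.31. The Prkacb to Prkaca ratio was 3.85 and 6.48, the Prkar1a to catalytic ratio 3.35 and 3.11, and the Prkar1a share 93.3% with the longest coding sequence (94.9%). The transcripts expressed are not known from gene-level values. Pde4a and Pde3b rest on as few as 12 and 18 reads in a library. The edgeR test was not run.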
